A study of Mus musculus with 3 samples.

Results

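The genes described here are 47 genes of the DNA replication machinery, chosen by symbol among the 50600 genes counted in T-helper 1 (Th1) cells. Th1 cells are the CD4 T cells that make interferon gamma, and these were primary cells taken from C57BL/6NJ mice. The 3 libraries form 1 group, numbered in the labels as biological replicates 1, 2 and 3, and they share a donor record, with no age or sex given. According to the headers, the cells were sorted and the time point was 72 hours. No genetic change and no treatment arm is labelled, and there is no control group, so levels and their spread between libraries are what can be compared. The 47 genes were sorted by role into 6 licensing genes, 14 helicase genes, 9 polymerase genes and 18 fork factors.

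Replication starts at origins, where the origin recognition complex, Cdc6 and Cdt1 load the ring-shaped Mcm2 to Mcm7 helicase in G1. In S phase the kinase Cdc7 with its activator Dbf4, and then Cdc45 and the GINS complex, turn the loaded ring into the active helicase. Polymerase alpha with primase lays primers, polymerases epsilon and delta extend them on the sliding clamp PCNA, and nucleases and a ligase join the fragments of the lagging strand. Many of these genes are transcribed in late G1 and S phase under E2F factors, and a T cell that has been activated passes through several divisions before it settles into an effector state.

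The libraries held 4482916, 266790 and 3733531 counts in replicates 1, 2 and 3, so replicate 2 was 16.8-fold and 13.99-fold shallower than the others and stands apart by depth. Levels are given as TPM, counts per exon length scaled to the same total in every library, with the SD over the 3 libraries (n = 3). Counting was strand-specific. A gene is called overlapped below where its exons share bases with a gene on the opposite strand, and overlapped genes took 51.7%, 55.1% and 66.5% of all counts (replicates 1, 2 and 3). Which strand the library kit marks is not given in the sources used here, so each level is that of the counted strand. If the kit marks the opposite strand, the counts of every gene, overlapped or not, would be of the strand opposite to its own transcripts. All 7 Th1 and T-cell markers had a mean above 10 TPM, with Ifng at 604 ± 252 TPM and Cd4 at 174 ± 53.5 TPM. The lowest, Cd3e, had 34.2, 1.90 and 18.9 TPM, on 1 count in replicate 2. For other cell types, 16 markers of B cells, macrophages, neutrophils, CD8 T cells, natural killer cells and erythroid cells were looked up. Of these 16 markers, 11 had no count in any library, among them Lyz2, S100a8, Cd8a and Ncr1. Those with counts were Csf1r, Alas2, Cd79a, Cd8b1 and Ly6g. The erythroid Alas2 (overlapped) had 18, 7 and 33 counts in replicates 1, 2 and 3, and the B-cell Cd79a 11, 2 and 31. The CD8 marker Cd8b1 had 14, 0 and 7 counts, and the neutrophil Ly6g 2, 0 and 3. The summed level of the 16 was 98.1, 146 and 156 TPM in replicates 1, 2 and 3, of which most was Csf1r (overlapped, 111 ± 25.05 TPM). Their part in the levels of replication genes was not tested. In a bulk library fewer cycling cells and less RNA per cell cannot be told apart.

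All 47 replication genes were counted, and most had levels far above the median protein-coding gene. Each of the 47 reached a mean of 1 TPM, which 47.8% of all protein-coding genes did. A mean of 10 TPM was reached by 45 of the 47, against 27.3% of protein-coding genes. The median member had 35.3 TPM, or 5.14 on the log2(TPM + 1) scale, against 0.62 over all protein-coding genes. By overlap class, the median of the 33 members with no overlap was 31.5 TPM, against 0.156 TPM for protein-coding genes with no overlap, and that of the 14 overlapped members was 60.2 TPM, against 7.42 TPM for overlapped protein-coding genes. The members together took 0.460%, 0.449% and 0.345% of the counts in replicates 1, 2 and 3. Helicase genes had the highest median, 55.7 TPM, followed by fork factors at 37.1, polymerase genes at 30.5 and licensing genes at 29.8 TPM. The range inside each role was wider than the distance between the role medians, for helicase genes from 13.3 to 145 TPM.

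**Figure D1:**
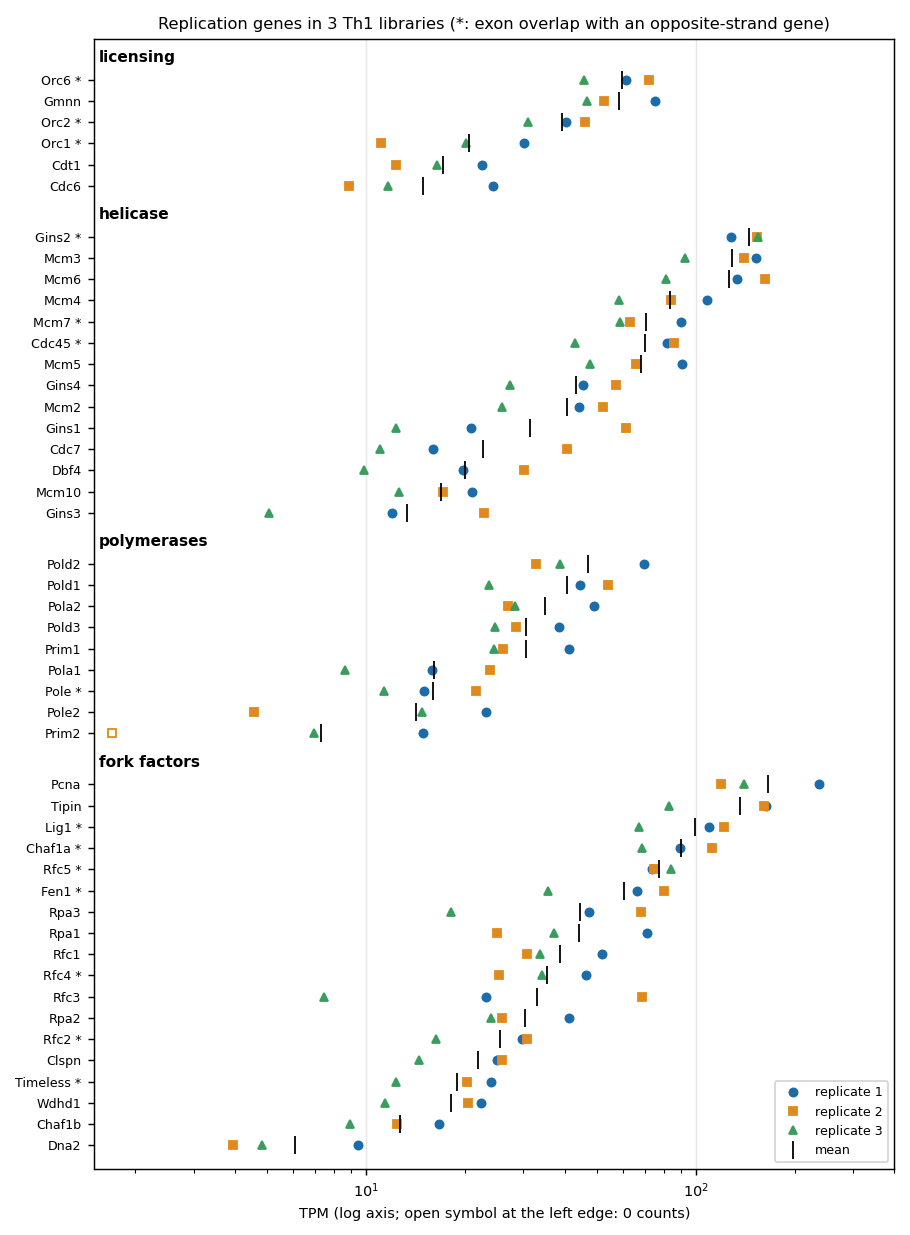
TPM (log axis) of each of the 47 replication genes in replicates 1, 2 and 3, grouped by role and sorted by mean within a role; the black tick is the mean, an asterisk marks an exon overlap with an opposite-strand gene, and the open square marks 0 counts. Pcna leads at a mean of 165 TPM and Dna2 is last at 6.08 TPM. In replicate 3, 45 of the 47 genes are lower than in replicate 1, as are 87.3% of protein-coding genes with at least 100 counts in these libraries.

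The order of levels ran from Pcna (165 ± 62.4 TPM) through Gins2, Tipin, Mcm3 and Mcm6, all above 100 TPM, down to Prim2 (7.28 ± 7.46 TPM) and Dna2 (6.08 ± 2.94 TPM). Neighbours in this order were rarely separated. Of the 46 neighbouring pairs, 4 kept the same gene higher in 3 of 3 libraries, and in 3 pairs the mean within-library difference on the log2(TPM + 1) scale was larger than its SD. Those 3 were Mcm6 over Lig1 (0.32 ± 0.08), Gmnn over Pold2 (0.35 ± 0.29) and Gins4 over Mcm2 (0.08 ± 0.05). The coarse order held across libraries, with a Spearman rho over the 47 members of 0.967 for replicates 1 and 3, of 0.798 for replicates 1 and 2, and of 0.764 for replicates 2 and 3. These are descriptions across genes, and the 3 libraries share a donor record.

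Promoter sequence was a feature that the choice of members did not use. RefSeq promoter windows on GRCm38.p6, of 250 bases before to 50 after the start site, were at hand for 38 of the 47 genes in 45 windows. The genes without a window were Gmnn, Mcm4, Gins1, Gins2, Gins4, Prim2, Pole, Rfc2 and Tipin. The forms of the E2F site searched were 4, which E2F factors of the G1 to S transition bind, on either strand: TTTCCCGC, TTTCGCGC, TTTGCCGC and TTTGGCGC. At least 1 was present in 15 of the 45 windows (33.3%), against 2.26% of all 32851 windows in the table. Among windows of protein-coding genes with a mean of at least 10 TPM the share was 4.73%, and among windows in the middle range of the members' GC content (54.0% to 65.7%) it was 3.61%. The other replication genes, listed further on, had it in 12 of 56 windows (21.4%). A match is a string of letters and not a shown binding site.

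Genes of every role held such a word. It was found in 3 of 5 licensing genes with a window (Orc1, Cdc6, Cdt1), in 5 of 10 helicase genes (Mcm3, Mcm5, Mcm6, Mcm7, Gins3), in 4 of 7 polymerase genes (Pola1, Pold1, Pold3, Pole2) and in 3 of 16 fork factors (Rfc3, Lig1, Clspn). Among the 4 ring genes, Mcm6 had 3 matches. Genes with a match before the RefSeq start site are shown with the matched word in capitals, as 30 bases of the strand of the gene, because they let the forms of the word be compared across roles. The start sites are those of RefSeq, and the windows of Cdc6, Mcm7, Gins3 and Rfc3 and 23 bases of that of Orc1 lie inside the gene bounds of the counted annotation.
Orc1, chr4:108579416-108579445, plus strand: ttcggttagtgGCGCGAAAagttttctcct
Cdc6, chr11:98908002-98908031, plus strand: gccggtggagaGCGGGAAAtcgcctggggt
Mcm5, chr8:75109345-75109374, plus strand: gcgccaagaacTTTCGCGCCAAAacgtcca
Mcm6, farther match, chr1:128359797-128359826, minus strand: tggcgtatgctTTTGGCGCGAAAagtgcgt
Mcm6, nearer match, chr1:128359734-128359763, minus strand: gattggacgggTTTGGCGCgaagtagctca
Mcm7, chr5:138172030-138172059, minus strand: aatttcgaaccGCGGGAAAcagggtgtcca
Gins3, chr8:95633507-95633536, plus strand: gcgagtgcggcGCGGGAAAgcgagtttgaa
Pola1, chrX:93632275-93632304, minus strand: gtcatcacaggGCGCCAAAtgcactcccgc
Rfc3, chr5:151651200-151651229, minus strand: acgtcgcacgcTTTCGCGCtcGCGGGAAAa

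In Mcm5 and Mcm6 the capitals form a longer run because 2 words on opposite strands share bases there, and 4 of the 21 matches in all share bases in this way. Rfc3 has 2 separate words, the second of them at the start site. Of the 21 matches, 11 lay wholly before the start site, 4 of them within 100 bases of it. The word CCAAT or its reverse ATTGG, which the factor NF-Y binds, stood in 24 of 45 member windows (53.3%) against 37.4% of all windows, and 9 windows (20.0%) held an E2F word and CCAAT together, against 0.962% of all. An E2F word and CCAAT shared bases in 1 case, in Mcm7. The 250 bases before the start of Mcm6 are shown because they hold 3 E2F matches and 2 ATTGG, both kinds in capitals. The same stretch of Pcna, the highest member, held 1 ATTGG and no E2F word of those searched.
Mcm6, chr1:128359706-128359955, minus strand: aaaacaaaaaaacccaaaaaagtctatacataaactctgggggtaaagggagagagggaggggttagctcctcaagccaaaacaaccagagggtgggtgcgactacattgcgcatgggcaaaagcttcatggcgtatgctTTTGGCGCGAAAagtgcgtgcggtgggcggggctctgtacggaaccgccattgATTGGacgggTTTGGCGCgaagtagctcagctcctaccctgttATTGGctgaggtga

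**Figure D2:**
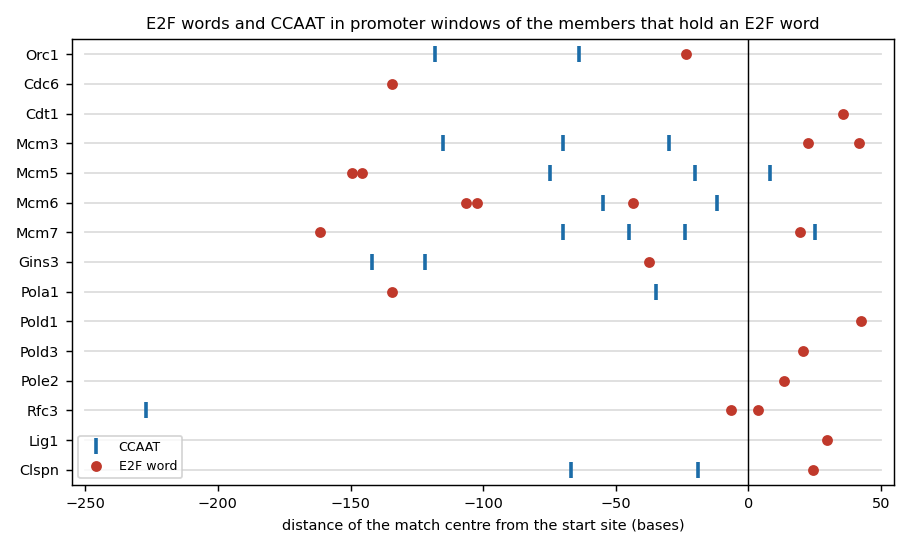
Positions of E2F words (dots) and of CCAAT or ATTGG (ticks) in the promoter windows of the 15 members with an E2F word, as distance in bases of the match centre from the start site (vertical line). In Mcm5 both E2F words lie farther from the start than its CCAAT words, and 7 of the 15 genes (Cdt1, Mcm3, Pold1, Pold3, Pole2, Lig1 and Clspn) have the E2F word only after the start site.

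Levels of genes with and without the word overlapped. The 15 members with an E2F word had a median of 30.5 TPM (range 13.3 to 128) and the 23 members with a window but no such word 38.9 TPM (range 6.08 to 165). No test of this difference was made.

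Among licensing genes the highest levels were those of the complex subunit Orc6 and of geminin. Orc6 (overlapped) had 61.6, 72.1 and 45.7 TPM in replicates 1, 2 and 3. Gmnn, the inhibitor that binds Cdt1 and blocks a second round of loading, had 75.4, 52.8 and 46.9 TPM, on 231, 10 and 140 counts. Cdt1 and the other loader, Cdc6, were lower in each library. Cdt1 had 22.5, 12.3 and 16.4 TPM, on 148, 5 and 105 counts, and Cdc6, the ATPase that helps place the ring, had 24.2, 8.88 and 11.6 TPM. Gmnn was therefore above Cdt1 and above Cdc6 in 3 of 3 libraries, with means of 58.4 ± 15.03, 17.1 ± 5.14 and 14.9 ± 8.18 TPM for Gmnn, Cdt1 and Cdc6. In replicate 2 the 95% counting intervals of Gmnn (25.3 to 97.2 TPM) and Cdt1 (4.00 to 28.8 TPM) had values in common. That of Cdc6 (3.26 to 19.3 TPM) lay below the one of Gmnn. In the recognition complex the order was Orc6, Orc2, Orc1 in every library. Orc1, the large ATPase subunit, had 30.2, 11.1 and 20.0 TPM, and Orc2 46.2 TPM in the shallow replicate 2 against 40.4 and 30.9 in the others. All 3 of these subunits are overlapped.

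The ring genes Mcm2 to Mcm7 were among the highest members. Mcm3 had 152, 140 and 92.9 TPM and Mcm6 134, 163 and 81.4 TPM in replicates 1, 2 and 3, so which of them led changed between libraries. Mcm4 (83.5 ± 24.6), Mcm7 (overlapped, 70.8 ± 17.1) and Mcm5 (68.1 ± 21.6) formed a middle group. Mcm2 was the lowest ring gene in 3 of 3 libraries, at 44.3, 52.3 and 25.8 TPM. The protein ring holds these subunits in equal number, while the highest mean was 3.15-fold the lowest. That distance depends on the length used: the deposited exon length of Mcm2 is 6956 bases, while its principal transcript has 3371. Principal transcript lengths were then used for all genes, a choice made after the data were seen. Only the length changed, and the counts of all deposited exons were kept. On that scale Mcm2 had 65.8 ± 20.8 TPM and Mcm5 became the lowest at 62.8 ± 18.4. Mcm6 was the highest at 158 ± 49.0, and the range shrank to 2.51-fold.

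The partners that complete the active helicase were spread more widely. Cdc45 (overlapped), which bridges the ring and GINS, had 81.5, 85.9 and 43.2 TPM. Of the 4 GINS subunits, Gins2 (overlapped) had 127, 153 and 154 TPM and Gins3 12.0, 22.9 and 5.08 TPM, and these were the highest and the lowest of the complex in 3 of 3 libraries. Their means differed 10.9-fold. Gins4 lay between them at 43.3 ± 15.1 TPM. Gins1 had 20.8, 61.3 and 12.3 TPM, on 66, 12 and 38 counts, and without replicate 2 its mean dropped to 16.6 TPM, against 31.5 with it. Gins2 is the member with the second largest overlapped share, since 67.3% of its exon bases lie in exons of Gse1 on the opposite strand, and its level cannot be set beside those of the other subunits without that limit. Mcm10, which is needed to fire the helicase, had 16.9 ± 4.19 TPM. The kinase Cdc7 (22.6 ± 15.9 TPM) and its activator Dbf4 (19.9 ± 10.2 TPM) had like means, but their order changed between libraries. With principal transcript lengths Dbf4 had 56.5 ± 28.2 and Cdc7 23.6 ± 16.4 TPM. For Dbf4 that value divides counts from 8728 deposited exon bases by a length of 2402.

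Polymerase genes were moderate, with no mean at 50 TPM over the 3 libraries. Pold2 passed 50 TPM without replicate 2 (54.2 TPM) or without replicate 3 (51.1 TPM). With principal transcript lengths Prim1 had 58.3 ± 16.4 and Prim2 17.1 ± 17.2 TPM. Polymerase delta, which extends the lagging strand, had Pold2 at 47.04 ± 19.8, the catalytic Pold1 at 40.8 ± 15.7 and Pold3 at 30.5 ± 7.05 TPM, a 1.54-fold range. Their order was not stable, since Pold1 was the highest in replicate 2 and the lowest in replicate 3. With principal transcript lengths Pold1 had 44.8 ± 16.5, Pold2 42.4 ± 17.0 and Pold3 35.8 ± 7.42 TPM, a 1.25-fold range. The catalytic subunit of polymerase epsilon, Pole (overlapped), had 14.95, 21.5 and 11.3 TPM. Its partner Pole2 had 23.1, 4.57 and 14.8 TPM, where the value of replicate 2 rests on 1 count with a 95% counting interval from 0.116 to 25.4 TPM. The catalytic Pold1 was above the catalytic Pole and above the catalytic Pola1 in 3 of 3 libraries. Polymerase alpha had its accessory subunit Pola2 at 34.9 ± 12.5 TPM and its catalytic subunit Pola1 at 16.1 ± 7.54 TPM. Primase, which makes the RNA primer, consists of the catalytic Prim1, at 41.2, 26.0 and 24.4 TPM, and the large subunit Prim2, at 14.9, 0 and 6.95 TPM. Prim2 had 185, 0 and 84 counts, and for 0 counts in replicate 2 the exact 95% counting interval reached 4.81 TPM, while the floor of 3 counts corresponded to 3.91 TPM. Without replicate 1 the mean of Prim2 was 3.47 TPM.

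Among fork factors Pcna stood first in the mean. The clamp had 236, 119 and 140 TPM in replicates 1, 2 and 3, rank 1, 6 and 2 among the 47 members. Tipin, the partner of Timeless in the fork protection complex, had 163, 161 and 83.0 TPM, while Timeless (overlapped) had 24.0, 20.3 and 12.4 TPM. These proteins act as a pair, and the Tipin mean was 7.20-fold that of Timeless, with Tipin higher in 3 of 3 libraries; with principal transcript lengths the ratio was 5.32-fold. Clspn, the checkpoint adaptor claspin, and Wdhd1, which links polymerase alpha to the helicase, were near Timeless at 21.8 ± 6.33 and 18.1 ± 5.85 TPM.

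The clamp loader has a large subunit, Rfc1, and the small subunits Rfc2 to Rfc5. Rfc5 (overlapped) was its highest gene in 3 of 3 libraries at 73.7, 74.6 and 83.8 TPM. Rfc1 (38.9 ± 11.5), Rfc4 (overlapped, 35.3 ± 10.7) and Rfc2 (overlapped, 25.5 ± 8.04) lay below. Rfc3 had 23.0, 68.6 and 7.48 TPM, the largest ratio of highest to lowest library of any member (6.76) when sizes are TMM-scaled and counts under 3 are set to 3. Prim2, at 0 counts in replicate 2, had a ratio of 3.73 on that basis. In replication protein A, the trimer that coats single-stranded DNA, Rpa3 (44.6 ± 25.1), Rpa1 (44.4 ± 23.8) and Rpa2 (30.3 ± 9.47) were within 1.47-fold, and neither the highest nor the lowest was the same in all libraries.

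Genes that finish the lagging strand differed from each other. Lig1, the ligase that seals the nicks, had 110, 121 and 67.2 TPM, and the flap nuclease Fen1 66.3, 79.9 and 35.7 TPM, both overlapped. Dna2, the nuclease-helicase for long flaps, was the lowest member of all at 9.44, 3.95 and 4.85 TPM, on 116, 3 and 58 counts. Lig1 was above Fen1 and Fen1 above Dna2 in 3 of 3 libraries. Of the chromatin assembly factor, which deposits histones behind the fork, the large subunit Chaf1a (overlapped) had 90.1 ± 21.8 TPM and the middle subunit Chaf1b 12.7 ± 3.86 TPM, a 7.12-fold distance. The principal transcript length is 5535 bases for Chaf1a, counted over 3308, and 1922 bases for Chaf1b, counted over 5001. With these lengths and unchanged counts, the values were 42.2 ± 9.55 and 25.7 ± 7.23 TPM and the distance 1.64-fold. Counts and lengths then cover different bases, so the smaller distance is not a corrected one.

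Exon overlap with an opposite-strand gene held for 14 of the 47 members (29.8%), against 22.1% of protein-coding genes, in 16 pairs. Fen1 is the extreme case. It lies on the minus strand of chromosome 19 from 10199132 to 10204169, and Gm10143, annotated as an antisense gene, lies on the plus strand from 10198368 to 10202384 (mm10). They share 1909 exon bases, which is 78.8% of Fen1 and 57.3% of Gm10143. Fen1 had 336, 25 and 176 counts in replicates 1, 2 and 3, and Gm10143 had 6377, 429 and 8788. Gm10143 thus held 19.0, 17.2 and 49.9 times the counts of Fen1, and per kb of exon 21.1 times over the 3 libraries. If the kit marks the strand opposite to the counted one, fragments of Fen1 transcripts within the shared bases would be counted to Gm10143 and the ratio could turn round. These cases cannot be told apart here, and the doubt about the strand holds for every pair below and for the members with no overlap. Fen1 also shares 130 exon bases with Tmem258, which had 147, 3 and 83 counts.

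The other noncoding partners showed the same order. Gm15792, opposite to Pole, had 17.5 times the counts per kb of Pole, although the shared stretch is 78 bases. Gm12743, opposite to Orc1, had 5.52 times the counts per kb of Orc1, on 795, 62 and 1298 counts. Gm26847, opposite to Timeless, had 1.79 times. Over all 16 pairs the partner was higher per kb in 9, against 49.8% of such pairs of protein-coding genes at 10 TPM or more. It was higher for 4 of 4 noncoding partners, where the share over all pairs with a noncoding partner was 73.6%. Of the 12 pairs with a protein-coding partner the partner was higher in 5, against 38.9% over all such pairs, namely Nif3l1 opposite to Orc2, Eif4a2 opposite to Rfc4, Ubxn6 opposite to Chaf1a, and Cops6 and Ap4m1 opposite to Mcm7. Gse1 opposite to Gins2 had 0.163 times the counts per kb of Gins2, Wsb2 0.146 times those of Rfc5 and Zswim9 0.0183 times those of Lig1.

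**Figure D3:**
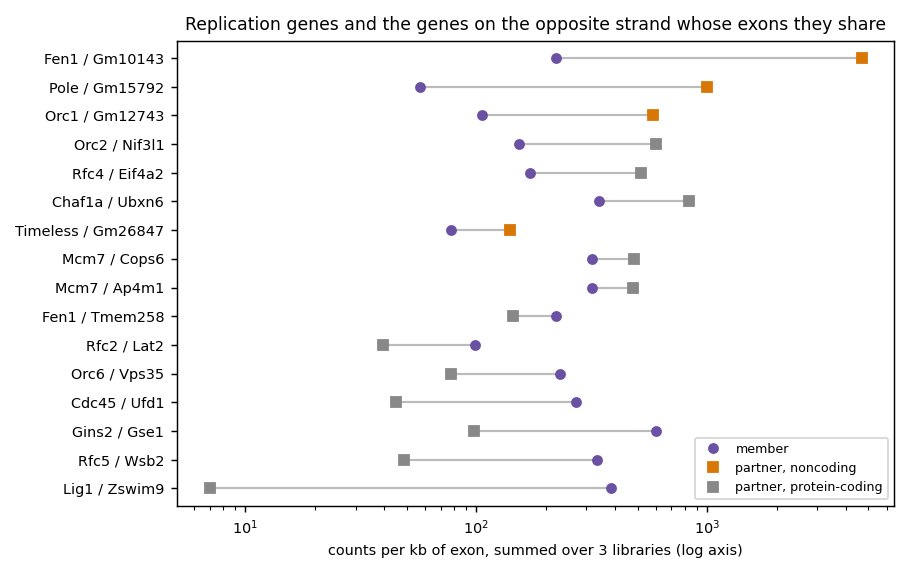
Counts per kb of exon, summed over the 3 libraries (log axis), of 14 overlapped replication genes (circles) and of the genes on the opposite strand with which they share exon bases (squares), 1 row per pair. Gm10143 lies farthest to the right, 21.1-fold above Fen1, and all 4 noncoding partners lie to the right of their replication gene.

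Replicates 1 and 3, the deep libraries, differed in the same direction for nearly all members. TPM was lower in replicate 3 for 45 of the 47, with a median log2 ratio of replicate 3 over replicate 1 of -0.78. For protein-coding genes with at least 100 counts in these libraries it was lower in 87.3%, with a median of -0.73, so the members followed the background. Members were then set beside genes of the same overlap class. The 33 members with no overlap had a median of -0.80 (SD 0.23 across genes) and were lower in 33 of 33, against a median of -0.79 (SD 0.30) and 98.0% over protein-coding genes with no overlap. The 14 overlapped members had a median of -0.52 (SD 0.38), against -0.49 (SD 0.57). With TPM scaled over genes with no overlap alone, the median of the 33 members was -0.14 and that of the comparable protein-coding genes -0.13. The 2 members that were higher in replicate 3 were Gins2 (0.28) and Rfc5 (0.18), both overlapped. Their opposite-strand partners went separate ways, with Gse1 at 0.23 and Wsb2 at -0.35, and the part of the overlap in these values was not tested. The 4 noncoding partners Gm10143, Gm15792, Gm12743 and Gm26847 were higher in replicate 3, by 0.50, 0.68, 0.75 and 0.71, while Fen1, Pole, Orc1 and Timeless were lower. Overlapped genes as a class took 66.5% of the counts in replicate 3, against 51.7% in replicate 1. The share of all overlapped noncoding genes that were higher in replicate 3 is not at hand, so these values are not shown to be particular to these loci.

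**Figure D4:**
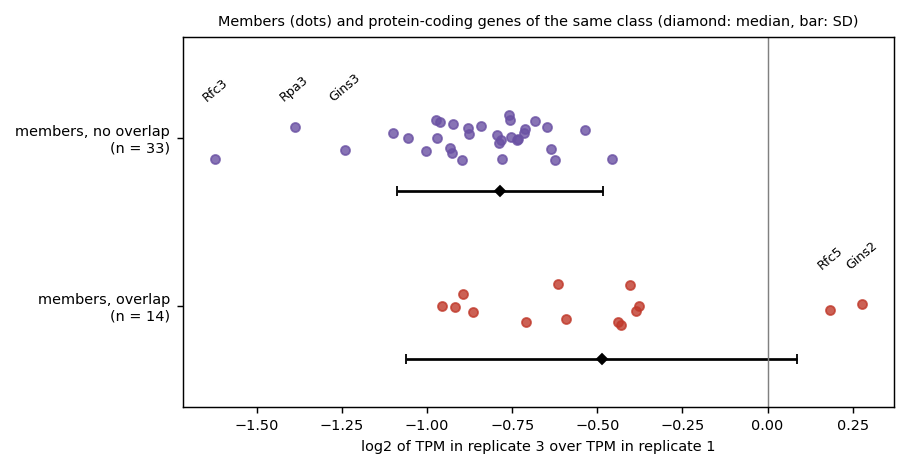
Log2 of TPM in replicate 3 over TPM in replicate 1 for 33 members with no opposite-strand overlap (upper row) and 14 overlapped members (lower row), 1 dot per gene, with the median and the SD across protein-coding genes of the same class (diamond and bar). The medians of members and of all genes of a class lie close together, Rfc3 is the lowest member at -1.62, and Gins2 and Rfc5 are the only members above 0.

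Some members differed between the 3 libraries by more than counting error. A chi-square test of the counts against scaled library sizes (adjusted p under 0.05 over 11595 genes tested, with the highest library at least 2 times the lowest) called 11 of the 47, or 23.4%, where it called 32.2% of all genes. This test compares libraries and not conditions, and it holds counting error only. Of the 47 members, 7 were called and highest in replicate 2, against 10.5% of all genes tested, and 4 in replicate 1, against 7.59%. No called member was highest in replicate 3, where 14.1% of all genes tested were called and highest. The 11 had no overlap, so 11 of 33 members with no overlap passed (33.3%), against 24.7% of genes with no overlap. By contrast, 0 of the 14 overlapped members passed, against 43.3% of overlapped genes. Of those 14, 8 had an unadjusted p under 0.05, 7 an adjusted p under 0.05 at any ratio, and 0 passed with DESeq2 size factors. With plain library totals 14 of the 47 members passed, among them the overlapped Orc1, against 35.4% of all genes. At a ratio of at least 1.5, 18 of the 47 passed, among them the overlapped Fen1, Gins2 and Rfc5, against 47.8% of all genes. At an adjusted p under 0.05 with any ratio 29 of the 47 members passed, against 55.5% of all genes. On genes with no overlap alone, fitted and scaled among themselves, 7 of 33 members passed, against 17.3%.

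Those highest in replicate 2 were Rfc3, Gins1, Cdc7, Gins3, Rpa3, Dbf4 and Pola1. Rfc3 had 174, 32 and 55 counts (chi-square test, Benjamini-Hochberg adjusted p = 1.43e-18, ratio 6.76). Its level in replicate 2 was 4.49 times the mean of the others, with a 95% counting interval of that level from 46.9 to 96.8 TPM, which lies above the values in replicates 1 and 3. Cdc7 had 140, 22 and 94 counts (chi-square test, adjusted p = 0.000117) and was 3.01 times the mean of the others. Gins1 was 3.70 times (chi-square test, adjusted p = 0.00048), on 12 counts. For Gins1 and Gins3 the counts expected in replicate 2 were under 5, where the chi-square test is approximate. Cdc7 and Dbf4, the kinase pair, were thus called in the same direction, and Dbf4 had 360, 34 and 175 counts (chi-square test, adjusted p = 6.74e-06).

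Those highest in replicate 1 were Prim2, Rpa1, Cdc6 and Pold2, with few counts in replicate 2. Rpa1 had 828, 18 and 422 counts (chi-square test, adjusted p = 1.09e-09, ratio 2.78), and Cdc6 265, 6 and 124 (chi-square test, adjusted p = 0.000286, ratio 2.67). Prim2 (chi-square test, adjusted p = 9.71e-05, ratio 3.73) was lowest in replicate 2 on 0 counts. Rpa1 and Rpa3, subunits of the same trimer, were thus called with opposite extremes in replicate 2, at 0.462 and 2.07 times the mean of the other libraries. Most of these calls were lost without the shallow library. Without replicate 2 the test called 1 of 47 members (2.13%), against 14.9% of all genes, and that member was Rfc3 (chi-square test, adjusted p = 1.15e-05, ratio 2.05). The ratio of at least 2 matters here. At an adjusted p under 0.05 with any ratio, 16 of the 47 members passed without replicate 2. Among them were Gins2 (ratio 1.82), Rfc5 (ratio 1.71) and Rpa1 (ratio 1.27). The share of all genes that pass in that setting is not at hand.

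Other genes of replication were grouped in 8 lists. Of 57 genes, 56 reached 1 TPM and 45 reached 10 TPM, with a median of 23.2 TPM. The exception was Atrip, the partner of the checkpoint kinase ATR, with 3, 0 and 10 counts. The chi-square test called 15 of 56 tested, where it called 32.2% of all genes. Of the 56, 6 were called and highest in replicate 1, 6 in replicate 2 and 3 in replicate 3. Over all genes those shares were 7.59%, 10.5% and 14.1%.

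Origin factors outside the members had 8 of 11 at 10 TPM, and Orc5 was the lowest at 5.38 ± 1.38 TPM. Enzymes of nucleotide supply were all at 10 TPM or more, 9 of 9, led by Rrm2, the S-phase subunit of ribonucleotide reductase, at 153 ± 60.6 TPM and by the dUTPase Dut at 88.5 ± 55.4 TPM. The small polymerase epsilon subunit Pole3, which also serves in a chromatin remodelling complex, had 106 ± 42.2 TPM, above the means of Pole and Pole2, while Pole4 had 12.6 ± 12.1 TPM with 127, 0 and 70 counts. Of the alternative clamp loader genes 2 of 4 reached 10 TPM, with Chtf8 (overlapped) highest at 42.9, and Dscc1 at 5.05 ± 4.81 and Chtf18 (overlapped) at 9.98 ± 4.86 TPM. All 7 genes of replication-coupled chromatin were at 10 TPM or more, led by Rbbp7 (overlapped, 171 ± 45.5) and the maintenance methyltransferase Dnmt1 (109 ± 19.3). The highest values of all were those of overlapped genes, Rad9a at 931 ± 129 and Rnaseh2a at 428 ± 194 TPM. Cyclin Ccna2 (overlapped) had 204 ± 49.5 TPM and its kinase Cdk2 (overlapped) 9.76 ± 5.50 TPM.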

How the data were processed

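RNA of 3 Th1 libraries was analysed from the deposited raw counts of fragments per gene. Per the file headers, these came from featureCounts (version 1.4.6-p4) with both ends mapped, strand setting 1 and exons of GENCODE mouse release 13 on mm10. The assay is labelled total RNA, although the protocol linked for the library is a polyadenylated RNA one. For the aligner, the version is not given in the sources used here. Nothing was pooled. Symbols and principal transcript lengths came from GENCODE release 21 on the same assembly, by gene identifier without version (50376 of 50600 matched). Coordinates count from 1.

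TPM was computed from the deposited counts and exon lengths. Counting left out fragments that map to several places under the default settings, so genes with pseudogene copies, such as Pcna, could lose some; Mcm7 and Rpa1 share 172 and 44 exon bases with a gene on their own strand. Library sizes for the chi-square test were scaled with TMM (edgeR 4.0.16, R 4.3.3), for genes with a mean of at least 10 counts, with a floor of 3 counts under the ratio; DESeq2 1.42.0 size factors and plain library totals were alternatives. The test was fitted on all genes, adjusted over them (Benjamini-Hochberg), and checked on simulated counts. Counting intervals are exact 95% Poisson intervals; they and floors cover counting error only, since PCR copies are not independent molecules. Nothing in the labels shows separate animals or cultures beyond the replicate numbers, so the spread may be technical. Genes named were members, their opposite-strand partners, markers, and the highest 2 or lowest 2 of a list. Members, lists and tests were chosen with earlier results of these data known.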

Additional observations from a re-analysis of the deposited data

How the results depend on the processing

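The count of members at 1 TPM stayed at 47 under all alternatives run, and the count at 10 TPM, 45, ranged from 44 to 47 under them. The median member level, 5.14 on the log2(TPM + 1) scale, was 6.71 with TPM scaled over genes with no opposite-strand overlap, which multiplies all TPM by 2.55, 2.70 and 4.01 in replicates 1, 2 and 3; leaving out 1 replicate gave 4.93 to 5.35. The count of members varying between libraries was 11 of 47 (23.4%), against 32.2% of all genes tested. At a mean count of at least 100 it was 5 of the 35 members tested (14.3% against 34.1%). With a ratio of at least 1.5 it was 18 (38.3% against 47.8%), and on genes with no overlap 7 of 33 (21.2% against 17.3%). Leaving out 1 replicate gave 1 to 9. It was 9 without replicate 1 (19.1% against 18%), 1 without replicate 2 (2.13% against 14.9%) and 5 without replicate 3 (10.6% against 11.8%). With DESeq2 size factors it was 10 (21.3% against 31.9%) and with plain library totals 14 (29.8% against 35.4%). Apart from the filter, whose fewer tested genes lower the count, the cause was not tested. Rfc3 was called in each of these but not at a mean count of at least 100, which it does not reach. Leaving out 1 library moved 5 member levels by over 1.5 times, Gins1, Gins3 (to 8.54 TPM), Cdc7 (to 13.5 TPM) and Rfc3 (to 15.3 TPM) without replicate 2 and Prim2 without replicate 1. Principal transcript lengths, added after seeing the data and used with the counts of all deposited exons, moved 11 of 47 levels by more than their SD. No paired analysis was possible because there is 1 group. Depth limits replicate 2, where 10 members had fewer than 10 counts.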
